A study of Homo sapiens with 13 samples.

Results

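The genes described here are 9 members of the transforming growth factor beta (TGF-β) pathway, chosen by symbol from the 56831 genes listed for each library: the ligands *TGFB1*, *TGFB2* and *TGFB3*, the receptors *TGFBR1*, *TGFBR2* and *TGFBR3*, the signal transducer *SMAD3*, the inhibitor *SMAD7* and the target gene *TGFBI*. All 9 were found. RNA was sequenced from H82 and H146, established human small cell lung cancer (SCLC) lines that the labels give as WT. Untreated cells (3 libraries of each line) were compared with cells kept for 14 days in 100 nM FHD-286, an allosteric inhibitor of SMARCA2 and SMARCA4, the ATPases of the SWI/SNF chromatin remodelers (3 libraries of H82, 4 of H146). Drug-free and treated cells of both lines grew in the same serum-containing medium, and the untreated libraries are labelled as having no treatment, with no mention of a solvent control. The labels number the libraries without saying whether they came from separate cultures, so the *p* values measure the spread between these libraries, which may be technical.

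TGF-β ligands are secreted in a latent form and, once released, bring together the type II receptor TGFBR2 and the type I receptor TGFBR1, which phosphorylates SMAD2 and SMAD3. These join SMAD4, enter the nucleus and act on target genes, among them *SMAD7*, whose product closes a negative feedback loop on the receptors. In epithelial cells the pathway is known for growth arrest and for epithelial-mesenchymal transition, and in SCLC lines low *TGFBR2* RNA has been described.

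Values are in transcripts per 1000000 (TPM), a unit that corrects for gene length and gives every library the same sum. The number of reads behind a value is not part of the tables, so no counting interval or detection limit is given. Of 5 neuroendocrine markers (*CHGA*, *SYP*, *NCAM1*, *INSM1* and *NEUROD1*), 5 had a mean of at least 1 TPM in H82 and 4 in H146. They summed to 610 to 660 TPM in untreated H82 and 1377 to 1679 TPM in untreated H146, and to 178 to 577 and 983 to 1244 TPM with FHD-286. In H146 *NEUROD1* stayed at 0.129 to 0.521 TPM, and *INSM1* alone held 1140 to 1405 TPM untreated. The markers did not move together. Log2 fold changes in H82 were -2.36, -2.13, 0.26, 2.19 and -1.53 in the order listed. For the first 4 they were -0.12, -0.26, 0.12 and -0.50 in H146. One H82 library stood apart: treated replicate 2 held 296 TPM of *INSM1* and 32.8 TPM of *EPCAM*, against 32.1 and 33.9 TPM and 3.08 and 1.11 TPM in replicates 1 and 3, and the members' values in H82 are given with and without it. The libraries also differed in how many genes reached 1 TPM (21227 to 21772 in untreated and 15554 to 16633 in treated H82, 17476 to 17965 and then 18778 to 19309 in H146) and in the percent of TPM from mitochondrial genes (22.1% to 24.1% and then 12.3% to 14.9% in H82, 7.56% to 8.86% and then 3.82% to 11.4% in H146). The part of these quantities in the results was not tested. Across all tested genes the median log2 fold change with treatment was -0.56 in H82 and 0.25 in H146. Dividing each library by the median of its ratios to the other libraries moved these medians to -0.14 and -0.02, and the calls from 2588 higher and 8996 lower to 4793 and 6499 in H82, and from 6356 and 3033 to 4165 and 4917 in H146. In bulk RNA, fewer cells of a type and less RNA per cell cannot be told apart.

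*TGFB1* RNA rose and *SMAD3* RNA fell in H82 with FHD-286, and *TGFBR1* fell by less. In H146 *SMAD7*, *TGFBR3* and *TGFBR1* rose while *SMAD3* fell, and *TGFB1*, the most abundant ligand there, did not pass the test. The *TGFBR1* calls depended on the processing, holding in 5 of 11 alternative settings in H82 and in 2 of 12 in H146. Of the 9 members, 7 had at least 1 TPM in at least 3 H82 libraries and were tested with limma on log2(TPM + 1) among 19770 genes, two-sided, with *p* values adjusted by the Benjamini-Hochberg (BH) method over all of them and 0.05 as the threshold. In H82 3 of the 7 passed (42.9%, against 58.6% of all tested genes). Of these, 1 was higher, or 14.3% against 13.1% of all genes, and 2 were lower, or 28.6% against 45.5%. In H146 8 were tested among 19585 genes, and 4 passed (50.0%, against 47.9%). There 3 were higher, or 37.5% against 32.5% of all genes, and 1 was lower, or 12.5% against 15.5%. These shares lie near or below those of all genes, so the counts single out nothing about the members, and the values of each gene are what follows. The median log2 fold change of the tested members was 0.05 in H82 and 0.46 in H146.

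**Figure D1:**
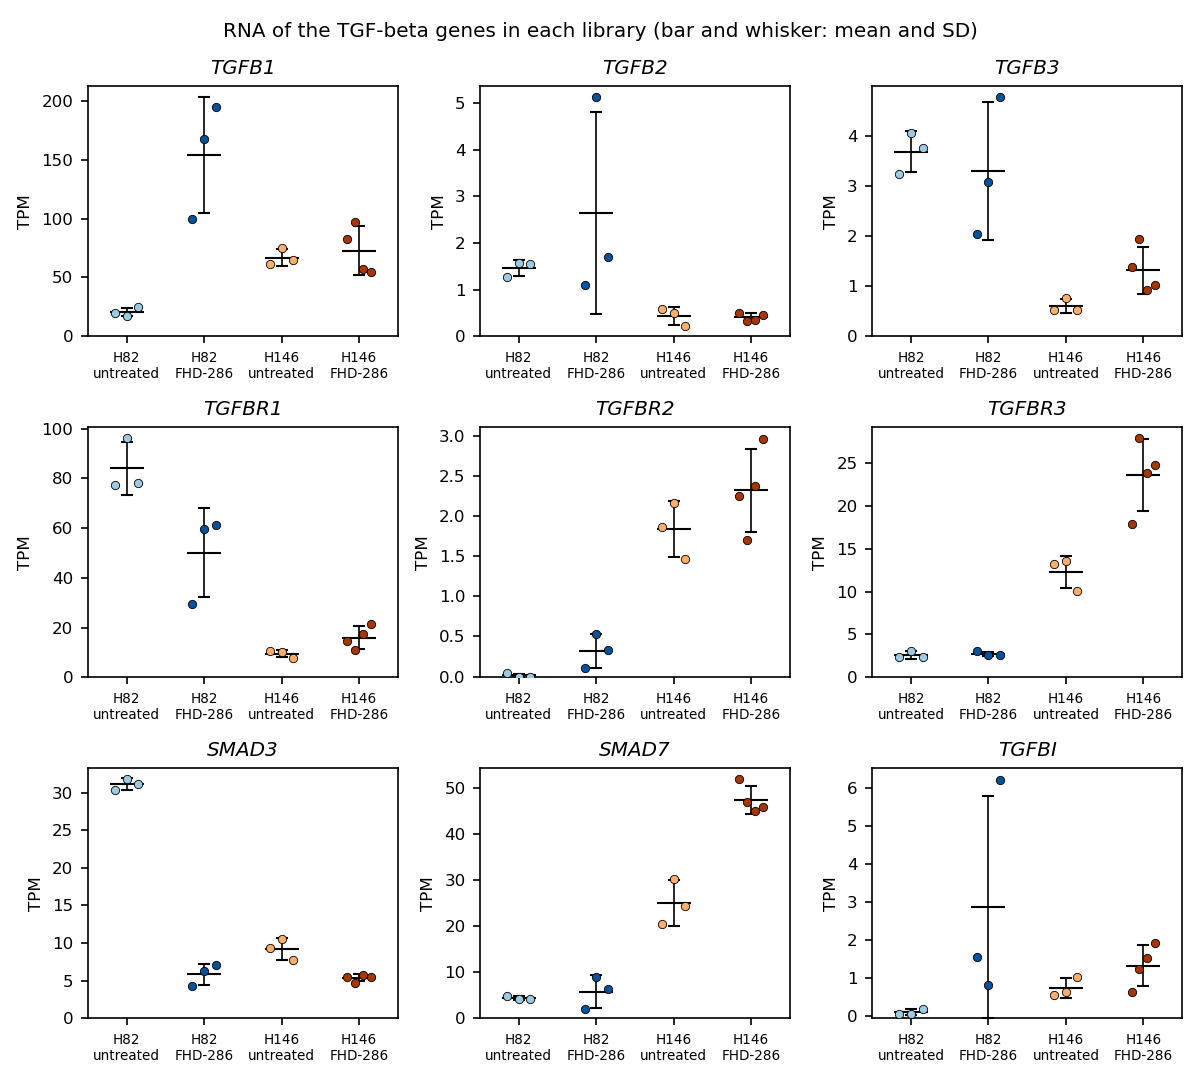
RNA level (TPM, linear axis, each panel with its own scale) of the 9 genes in each library, grouped by line and treatment. Points are libraries, and the bar and whisker are the mean and SD (n = 3, 3, 3 and 4). The treated H82 libraries lie between 99.4 and 195 TPM for *TGFB1*, above all other groups, and between 4.30 and 7.05 TPM for *SMAD3*, far under the untreated ones.

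*TGFB1* encodes the ligand TGF-β1 and lies on chromosome 19 (hg38 positions 41301587 to 41353922, minus strand, ENSG00000105329.11). It was at 19.9, 17.6 and 24.7 TPM in the untreated H82 libraries and at 99.4, 168 and 195 TPM in the treated ones. Every treated library was far above the highest untreated one, and the groups did not overlap, as was the case for 67.8% of all tested genes in H82. The mean moved from 20.7 ± 3.59 to 154 ± 49.3 TPM (SD, n = 3 and 3), a 7.44-fold rise, and the log2 fold change was 2.79 (standard error 0.27, limma, BH-adjusted *p* = 0.000314). This is 3.35 above the median of all genes. Median-of-ratios scaling gave 3.27 (limma, BH-adjusted *p* = 0.000239). Without treated replicate 2 the value was 2.70 (limma, BH-adjusted *p* = 0.00175).

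In H146 *TGFB1* was already at 61.2, 74.7 and 64.8 TPM without treatment, and at 82.7, 97.4, 56.9 and 54.8 TPM with FHD-286. The treated values lay on both sides of the untreated ones. The log2 fold change was 0.09, with a 95% interval from -0.40 to 0.57 (limma, BH-adjusted *p* = 0.759), and its sign changed to -0.23 with median-of-ratios scaling and -0.03 with quantile normalization. The response in H82 exceeded that in H146 by 2.71 on the log2 scale (standard error 0.36, interaction of line and treatment in limma over 13 libraries, adjusted *p* = 6.3e-05), where 59.3% of 24374 genes passed this test. It was 2.62 without H82 treated replicate 2 (limma, BH-adjusted *p* = 0.000256). Ordered by mean, untreated H82 was lowest, the H146 groups followed without being separable from each other, and treated H82 was highest and did not overlap with them.

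Exons of *TGFB1* share 215 of 3264 bases with exons of *HNRNPUL1* on the other strand, and whether reads were counted by strand is not stated in the sources used here. The mean level of *HNRNPUL1* was 0.942 times as high in treated as in untreated H82 (153 and 144 TPM before and after), and 1.21 times in H146. Its part in the *TGFB1* values was not tested.

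Because *TGFB1* had the largest change among the members tested in H82, the 250 bases before its start are shown (RefSeq, GRCh38.p14, chr19:41353923-41354172, minus strand, written 5′ to 3′). Capitals mark the GC box GGGCGG and its complement CCGCCC, the recognition motif of SP1-type factors:

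TGFB1: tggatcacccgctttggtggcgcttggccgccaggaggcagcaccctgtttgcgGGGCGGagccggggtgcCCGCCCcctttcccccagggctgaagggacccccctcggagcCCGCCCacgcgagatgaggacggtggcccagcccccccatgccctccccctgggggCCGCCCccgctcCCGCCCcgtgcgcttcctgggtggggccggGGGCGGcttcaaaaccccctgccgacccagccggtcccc

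The window holds 6 GC boxes, a motif present on either strand in 42.6% of 35116 RefSeq windows of the same length. It holds no CAGAC or GTCTG, the short SMAD box, which occurs in 38.0% of all windows.

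The other ligands were scarce. *TGFB2* (chromosome 1, 218345336 to 218444619, plus strand) encodes TGF-β2. In H82 it was at 1.27, 1.56 and 1.55 TPM untreated and at 1.09, 5.12 and 1.71 TPM treated. The high value belonged to treated replicate 2, and the log2 fold change of 0.41 (limma, BH-adjusted *p* = 0.405) became -0.05 without that library (limma, BH-adjusted *p* = 0.888). With quantile normalization it was 1.46 (limma, BH-adjusted *p* = 0.0182). In H146 *TGFB2* stayed between 0.220 and 0.581 TPM in all 7 libraries, below the filter (log2 difference -0.02, two-sided exact permutation test, *p* = 0.914). A total of 1371 of its 6050 exon bases also belong to *TGFB2-OT1*, a transcript listed at 0 TPM in every library, and 701 to the antisense gene *TGFB2-AS1*.

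*TGFB3* (chromosome 14, 75958097 to 75983011, minus strand) encodes TGF-β3. Untreated H82 libraries held 3.24, 4.06 and 3.75 TPM, and treated ones 2.04, 3.08 and 4.78 TPM, so the treated libraries spanned the untreated ones. The log2 fold change of -0.17 (limma, BH-adjusted *p* = 0.616) was -0.16 without treated replicate 2, and changed sign with median-of-ratios scaling (0.21) and with quantile normalization (0.81, limma, BH-adjusted *p* = 0.0521). The H146 libraries were at 0.530, 0.761 and 0.515 TPM untreated and 1.39, 1.95, 0.917 and 1.02 TPM treated. Every treated H146 library was above every untreated one, as for 52.9% of tested genes there whose groups did not overlap, while the log2 fold change of 0.52 missed the threshold (limma, BH-adjusted *p* = 0.0676). No untreated H146 library reached 1 TPM, so *TGFB3* met the filter there only through 3 treated libraries. *TGFB3* shares 163 of 5223 exon bases with an antisense gene.

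Within each library *TGFB1* made up most of the ligand RNA. Its share of the summed TPM of the 3 ligands was 79.9% ± 3.56 in untreated and 96.4% ± 0.879 in treated H82 (SD, n = 3 and 3), with lowest and highest libraries of 75.8% and 82.3% before and 95.3% and 96.9% after. Without treated replicate 2 the treated share was 96.9% (n = 2). In H146 the share was 98.5% ± 0.352 without and 97.7% ± 0.210 with FHD-286 (SD, n = 3 and 4). The summed ligand level went from 25.9 ± 3.59 to 160 ± 51.4 TPM in H82 and from 67.9 ± 7.16 to 74.7 ± 21.1 TPM in H146.

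*TGFBR1* (chromosome 9, 99104038 to 99154192, plus strand, ENSG00000106799.14) encodes the type I receptor kinase. In H82 it was at 77.4, 96.2 and 78.2 TPM untreated and 29.7, 59.6 and 61.3 TPM treated. All treated libraries lay under the untreated ones, and replicate 1 was the lowest by a wide margin. *TGFBR1* fell by 0.80 on the log2 scale (standard error 0.29, limma, BH-adjusted *p* = 0.0484), close to the median shift of all genes in H82, from which it differed by -0.24. The call was lost with median-of-ratios scaling (-0.31, limma, BH-adjusted *p* = 0.342) and without untreated replicate 1, 2 or 3 (limma, BH-adjusted *p* = 0.0958, 0.150 and 0.0983). Without treated replicate 1 the value was -0.46 (limma, BH-adjusted *p* = 0.0124), and without treated replicate 2 it was -0.95 (limma, BH-adjusted *p* = 0.0468).

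In H146 *TGFBR1* was at 10.5, 10.1 and 7.87 TPM untreated and 14.5, 10.8, 17.3 and 21.4 TPM treated. The groups did not overlap, although treated replicate 2 came within 1 TPM of the highest untreated library. *TGFBR1* rose by 0.67 on the log2 scale (standard error 0.23, limma, BH-adjusted *p* = 0.0379). With median-of-ratios scaling it was 0.37 (limma, BH-adjusted *p* = 0.149), and leaving out any single H146 library other than treated replicate 2 gave an adjusted *p* between 0.0615 and 0.136 in limma. The call was also lost with no filter, with quantile normalization and with a block for the replicate number (limma, BH-adjusted *p* = 0.0753, 0.130 and 0.126). The responses of the lines differed by -1.46 (H82 minus H146, limma, BH-adjusted *p* = 0.00572), by -0.68 with median-of-ratios scaling (limma, BH-adjusted *p* = 0.0993) and by -1.62 without H82 treated replicate 2 (limma, BH-adjusted *p* = 0.00525). All 4 groups were separate in level, from untreated H146 (lowest) through treated H146 and treated H82 to untreated H82.

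*TGFBR2* (chromosome 3, 30606601 to 30694142, plus strand, ENSG00000163513.19) encodes the type II receptor that binds the ligand first. It was listed at 0 TPM in 2 untreated H82 libraries and at 0.0408 TPM in the third, and at 0.102, 0.531 and 0.325 TPM in the treated ones. The treated values were higher in each library but all under 1 TPM, below the filter. The difference in mean log2(TPM + 1) was 0.37 (exact permutation test, two-sided, *p* = 0.1, which 3 against 3 libraries cannot go below), and 0.25 without treated replicate 2. The H146 levels were 1.87, 2.16 and 1.47 TPM untreated and 2.24, 1.70, 2.37 and 2.96 TPM treated. These groups overlapped, with a log2 fold change of 0.22 (limma, BH-adjusted *p* = 0.369) that was 0.01 with median-of-ratios scaling and -0.03 with quantile normalization.

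*TGFBR3* (chromosome 1, 91680343 to 91906335, minus strand, ENSG00000069702.11) encodes betaglycan, a coreceptor that presents ligand to TGFBR2. In H146 it was at 13.2, 13.6 and 10.1 TPM untreated and 17.9, 27.9, 23.9 and 24.8 TPM treated, without overlap. *TGFBR3* rose by 0.88 on the log2 scale there (standard error 0.18, limma, BH-adjusted *p* = 0.00475), or 0.63 above the median of all genes, and by 0.58 with median-of-ratios scaling (limma, BH-adjusted *p* = 0.0222). The H82 level was 2.36, 3.10 and 2.33 TPM untreated and 3.03, 2.55 and 2.58 TPM treated. These values overlapped, and the log2 fold change was 0.05, with a 95% interval from -0.40 to 0.51 (limma, BH-adjusted *p* = 0.826). Without treated replicate 2 the H82 value was 0.09, and with quantile normalization it was 1.10 (limma, BH-adjusted *p* = 0.00352). The difference between the lines was -0.83 (limma, BH-adjusted *p* = 0.0135), but -0.16 with median-of-ratios scaling (limma, BH-adjusted *p* = 0.607) and 0.45, with the opposite sign, under quantile normalization (limma, BH-adjusted *p* = 0.128). Without H82 treated replicate 2 it was -0.80 (limma, BH-adjusted *p* = 0.0274).

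The makeup of the receptor RNA set the lines apart more than the treatment did. *TGFBR1* was 97.0% ± 0.115 of the summed TPM of the 3 receptors in untreated H82 and 93.7% ± 2.80 in treated H82 (SD, n = 3 and 3), or 93.0% without treated replicate 2 (n = 2). In H146 it was 40.2% ± 1.06 without and 37.9% ± 7.63 with FHD-286 (SD, n = 3 and 4), where *TGFBR3* supplied most of the remainder. The treated H146 libraries ranged from 26.8% to 43.6%. No test was run on these shares.

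**Figure D2:**
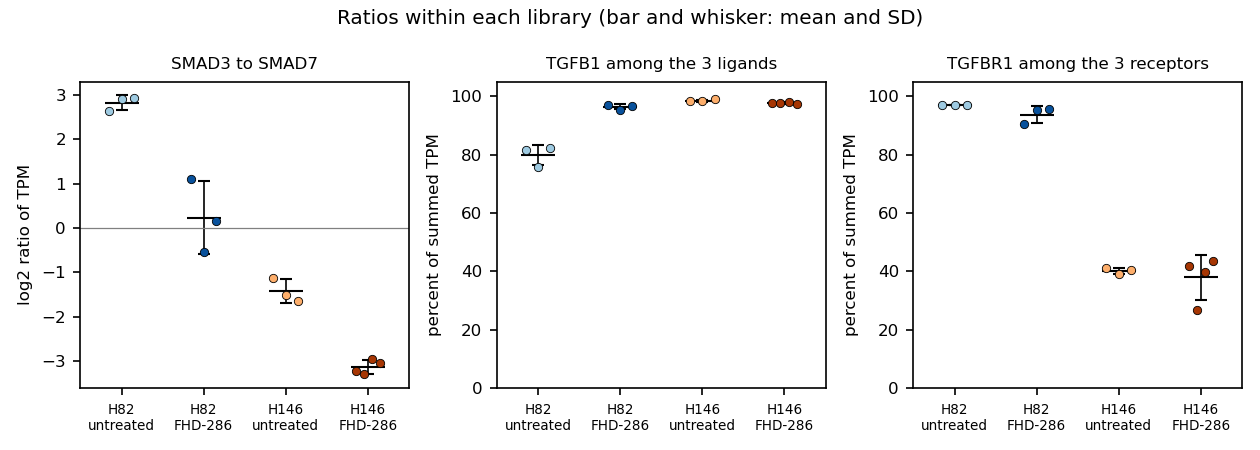
Ratios within each library, by line and treatment: log2 of *SMAD3* TPM over *SMAD7* TPM (left), *TGFB1* as a percent of the summed TPM of the 3 ligands (middle) and *TGFBR1* as a percent of the summed TPM of the 3 receptors (right). Points are libraries, and the bar and whisker are the mean and SD. The log2 ratio of *SMAD3* to *SMAD7* is lower with FHD-286 in both lines, while the receptor share separates the lines (90.4% or more in H82, 43.6% or less in H146).

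*SMAD3* (chromosome 15, 67063763 to 67195173, plus strand, ENSG00000166949.17) encodes the receptor-activated SMAD that carries the TGF-β signal to the nucleus, and it was the member that fell in both lines. In H82 it was at 30.3, 31.9 and 31.2 TPM untreated and 4.30, 6.23 and 7.05 TPM treated. The untreated libraries lay close together, and every treated library was far below them. The mean moved from 31.1 ± 0.776 to 5.86 ± 1.41 TPM (SD, n = 3 and 3), and the log2 fold change was -2.25 (standard error 0.19, limma, BH-adjusted *p* = 0.00023), or -1.69 relative to the median of all genes. It was -1.80 with median-of-ratios scaling (limma, BH-adjusted *p* = 0.000434) and -2.30 without treated replicate 2 (limma, BH-adjusted *p* = 0.00116).

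The H146 libraries held 9.34, 10.6 and 7.75 TPM of *SMAD3* untreated and 5.56, 4.76, 5.78 and 5.50 TPM treated, again without overlap. *SMAD3* fell by 0.67 on the log2 scale (standard error 0.16, limma, BH-adjusted *p* = 0.00898), and with median-of-ratios scaling by 0.95 (limma, BH-adjusted *p* = 0.000935). The fall in H82 was larger, by -1.58 (H82 minus H146, limma, BH-adjusted *p* = 0.000134) or -0.86 with median-of-ratios scaling (limma, BH-adjusted *p* = 0.00349), and -1.63 without H82 treated replicate 2 (limma, BH-adjusted *p* = 0.000314). After treatment the lines overlapped in level, at 5.86 ± 1.41 TPM in H82 and 5.40 ± 0.445 TPM in H146 (SD, n = 3 and 4). Of its 10011 exon bases, 182 are shared with an antisense long noncoding RNA.

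*SMAD7* (chromosome 18, 48919853 to 48950965, minus strand, ENSG00000101665.10) encodes the inhibitory SMAD that blocks the type I receptor, and its gene is a standard readout of TGF-β signaling. In H146 it was at 20.4, 30.3 and 24.3 TPM untreated and 51.8, 46.9, 45.1 and 45.8 TPM treated. Every treated library was far above the highest untreated one. The mean moved from 25.0 ± 4.98 to 47.4 ± 3.04 TPM (SD, n = 3 and 4), and the log2 fold change was 0.91 (standard error 0.15, limma, BH-adjusted *p* = 0.00162), or 0.60 with median-of-ratios scaling (limma, BH-adjusted *p* = 0.0136).

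In H82 *SMAD7* was at 4.88, 4.21 and 4.10 TPM untreated and 2.01, 9.06 and 6.36 TPM treated. One treated library was below and 2 were above the untreated range. The log2 fold change was 0.17 with a 95% interval from -0.85 to 1.19 (limma, BH-adjusted *p* = 0.755). It was -0.20 without treated replicate 2 (limma, BH-adjusted *p* = 0.703) and 0.67 without treated replicate 1 (limma, BH-adjusted *p* = 0.0252), so single libraries set its direction. The lines differed in response by -0.74 (limma, BH-adjusted *p* = 0.177), and by -1.11 without H82 treated replicate 2 (limma, BH-adjusted *p* = 0.0308).

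The 250 bases before the first RefSeq start of *SMAD3* (GRCh38.p14, chr15:67065352-67065601, plus strand, 5 starts listed) and of *SMAD7* (chr18:48950966-48951215, minus strand, 3 starts listed) are shown because *SMAD3* fell in both lines and *SMAD7* rose in H146. Capitals mark GGGCGG or CCGCCC and, separately, CAGAC or GTCTG:

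SMAD3: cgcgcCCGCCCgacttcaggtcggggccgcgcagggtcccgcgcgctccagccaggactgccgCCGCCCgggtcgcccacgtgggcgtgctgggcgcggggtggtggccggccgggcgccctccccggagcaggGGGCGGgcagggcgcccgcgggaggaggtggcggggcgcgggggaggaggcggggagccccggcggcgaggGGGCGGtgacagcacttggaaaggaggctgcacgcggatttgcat

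SMAD7: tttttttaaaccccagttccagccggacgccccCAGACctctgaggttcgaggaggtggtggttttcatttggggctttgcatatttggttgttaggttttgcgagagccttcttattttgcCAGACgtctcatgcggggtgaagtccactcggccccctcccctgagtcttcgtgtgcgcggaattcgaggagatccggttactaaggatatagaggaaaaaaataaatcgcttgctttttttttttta

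The *SMAD3* window holds 4 GC boxes and no SMAD box, and the *SMAD7* window holds 2 SMAD boxes and no GC box. The 8-base palindrome GTCTAGAC, a high-affinity SMAD site, was found in 0.182% of all windows and in none of the members' windows, and the AP-1 motif TGANTCA, present in 6.57% of windows, was found among the members only in 1 of the later *SMAD3* starts. Both strands were searched, and matches to these motifs did not overlap each other in the windows shown. A match describes the letters only, and no binding was measured here.

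Within a library the ratio of *SMAD3* to *SMAD7* TPM, a quantity chosen after the values were seen, does not depend on scaling between libraries. It was 7.12 ± 0.791 in untreated and 1.31 ± 0.749 in treated H82 (SD, n = 3 and 3). In H146 it was 0.376 ± 0.0729 untreated and 0.114 ± 0.0122 treated (SD, n = 3 and 4). On the log2 scale the ratio fell by 2.59 in H82 and by 1.71 in H146, and it was lower in every treated library than in any untreated library of the same line. Without H82 treated replicate 2 the difference was -2.20. No test was run on it, since *SMAD3* alone had already passed in both lines.

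*TGFBI* (chromosome 5, 136028988 to 136063818, plus strand, ENSG00000120708.17) encodes a secreted matrix protein named for its induction by TGF-β. In H82 it was at 0.0491, 0.0332 and 0.183 TPM untreated and 1.55, 0.817 and 6.22 TPM treated. All treated libraries were above the untreated ones, but only 2 reached 1 TPM, so the gene was below the filter, and replicate 3 supplied most of the mean. The difference in mean log2(TPM + 1) was 1.57 (exact permutation test, two-sided, *p* = 0.1, again the lowest that 3 against 3 can give). It was 1.98 without treated replicate 2 and 0.99 without treated replicate 3. In H146 *TGFBI* was at 0.531, 0.626 and 1.03 TPM untreated and 0.619, 1.23, 1.51 and 1.92 TPM treated, with overlap and a log2 fold change of 0.40 (limma, BH-adjusted *p* = 0.193). The lines differed by 1.17 in response (limma, BH-adjusted *p* = 0.0848), by 1.56 with median-of-ratios scaling (limma, BH-adjusted *p* = 0.0305) and by 1.58 without H82 treated replicate 2 (limma, BH-adjusted *p* = 0.0173).

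Fibroblasts and other stromal cells also express *TGFBI* and *TGFBR2*. A list of 5 fibroblast markers summed to 1.27 to 2.02 TPM in untreated H82 and to 6.55 to 16.8 TPM in treated H82, with 0 and 3 of the 5 at a mean of at least 1 TPM. Treated replicate 3, the library with the most *TGFBI*, also had the highest sum, and replicates 1 and 2 were at 8.08 and 6.55 TPM. *TGFBR2* was instead highest in treated replicate 2 (0.531 TPM), which had the lowest sum of the treated H82 libraries. *COL3A1* and *PDGFRA* were listed at 0 in all untreated H82 libraries. In H146 the sum went from 4.21 to 6.22 TPM without treatment to 12.8 to 31.3 TPM with it, and 2 and 3 of the 5 reached a mean of 1 TPM. The highest H146 sum was that of treated replicate 3, while *TGFBI* and *TGFBR2* were highest in treated replicate 4 (1.92 and 2.96 TPM). The part of the fibroblast markers in the values of *TGFBI* and *TGFBR2* was not tested. The 3 endothelial markers summed to at most 0.501 TPM in any H82 library and 2.62 TPM in any H146 library. The 3 leukocyte markers summed to 1.06 to 3.12 TPM in untreated and 1.78 to 3.81 TPM in treated H82, and to 6.44 to 9.43 and 7.01 to 17.8 TPM in H146, where *CD68* was listed at 0 without treatment. Epithelial markers (*EPCAM*, *CDH1*, *KRT8* and *KRT18*) summed to 1.49 to 3.16 TPM in untreated and 8.02 to 63.4 TPM in treated H82, where treated replicate 2 was the highest and the others were at 14.2 and 8.02 TPM, and to 1353 to 1377 TPM and 522 to 589 TPM in H146.

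**Figure D3:**
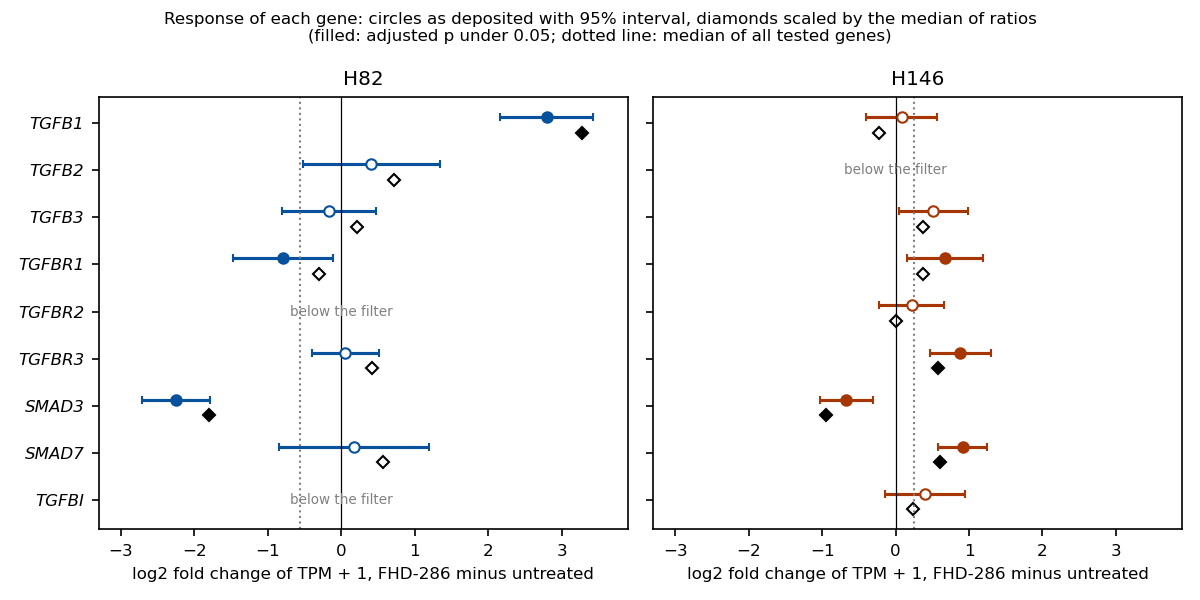
Log2 fold change of TPM + 1 with FHD-286 (horizontal axis) for each gene in H82 (left) and H146 (right). Circles with 95% intervals are the values as deposited, diamonds are those with median-of-ratios scaling, filled symbols have a limma, BH-adjusted *p* under 0.05, and the dotted line is the median of all tested genes (-0.56 and 0.25). *TGFB1* in H82 (2.79) and *SMAD3* in both lines (-2.25 and -0.67) keep filled symbols under both, *TGFBR1* in neither line does, and the sign of *TGFB3* in H82 and of *TGFB1* in H146 differs between the symbols.

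Both lines were compared before treatment as well, from separate tables in which each library had been scaled to the same sum. *TGFBR1*, *SMAD3*, *TGFB2* and *TGFB3* had higher mean levels in untreated H82 than in untreated H146, and *TGFB1*, *TGFBR2*, *TGFBR3*, *SMAD7* and *TGFBI* had lower ones. How many of all genes differ between the untreated lines was not counted, so this singles out nothing about the members. The widest gap in TPM was that of *TGFBR1*, with means of 83.9 ± 10.6 and 9.47 ± 1.40 TPM (SD, n = 3 and 3). These are levels of 1 line each, and no test between the lines was run on them.

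Across all 13 libraries the 3 genes whose log2(TPM + 1) ran most closely with *TGFB1* were *TOMM34* (Pearson correlation 0.967), *NDUFA1* (0.964) and *UQCRC1* (0.957), out of 24370 genes. The libraries share lines and treatments, so this is a description of these 13 points.

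A further 72 genes linked to signaling by the TGF-β superfamily, grouped by role, were listed from general knowledge. In H82 50 of them were tested, of which 10 were higher (20.0%, against 13.1% of all tested genes) and 23 were lower (46.0%, against 45.5%), with a median log2 fold change of -0.55 beside -0.56 for all genes. In H146 56 were tested, with 23 higher (41.1%, against 32.5%) and 7 lower (12.5%, against 15.5%), and a median of 0.47 beside 0.25. Without H82 treated replicate 2 the H82 counts were 9 and 23, and the 11 genes named for H82 by their largest change all passed. With median-of-ratios scaling they were 14 higher and 13 lower in H82 and 20 and 10 in H146, with medians of -0.08 and 0.19. Each group is given with its largest rise and fall in each line.

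Genes for the latent complex and its activation hold TGF-β in the matrix and release it. Of 11 listed, 2 of 8 tested were higher and 3 lower in H82 (25.0% and 37.5%, against 13.1% and 45.5% of all genes). In H146 4 of 9 were higher and 1 lower (44.4% and 11.1%, against 32.5% and 15.5%). With median-of-ratios scaling 2 were higher and 2 lower in H82, and 4 were higher and 2 lower in H146. *LTBP1*, which tethers latent TGF-β to the matrix, rose in both lines, from 0.0677 ± 0.0955 to 2.77 ± 1.40 TPM in H82 (log2 fold change 1.76, limma, BH-adjusted *p* = 0.00225). In H146 the same gene went from 5.37 ± 1.17 to 65.7 ± 11.4 TPM (3.39, limma, BH-adjusted *p* = 8.99e-06). *ITGB8*, an integrin subunit that activates latent TGF-β, fell in H82 from 5.69 ± 0.427 to 0.242 ± 0.0525 TPM (-2.43, limma, BH-adjusted *p* = 0.000152). In H146 it rose by 0.74 (limma, BH-adjusted *p* = 0.00731). *LTBP3* had the largest fall of this group in H146, from 59.6 ± 2.55 to 35.2 ± 4.73 TPM (-0.75, limma, BH-adjusted *p* = 0.00264).

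Among 10 activin, BMP and GDF ligands only 1 passed the filter in H82, *GDF11*, which was lower (-0.99, limma, BH-adjusted *p* = 0.00875, while median-of-ratios scaling gave -0.58 and 0.0622). In H146 6 were tested, with 2 higher and 1 lower (33.3% and 16.7%, against 32.5% and 15.5% of all genes). These counts were the same with median-of-ratios scaling. *BMP2* rose there from 45.6 ± 10.2 to 106 ± 18.0 TPM (1.20, limma, BH-adjusted *p* = 0.00126) and *BMP6* fell (-0.82, limma, BH-adjusted *p* = 0.0189). The call for *BMP6* was lost without untreated replicate 1 or 2 (limma, BH-adjusted *p* = 0.0539 and 0.0797).

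Secreted antagonists bind ligands outside the cell. Of 7 listed, 2 of 5 tested were higher and 2 lower in H82 (40.0% and 40.0%, against 13.1% and 45.5% of all genes). In H146 2 of 3 were higher and 1 lower (66.7% and 33.3%, against 32.5% and 15.5%). With median-of-ratios scaling 3 were higher and 2 lower in H82, and 2 were higher and 1 lower in H146. *NOG*, which encodes the BMP antagonist noggin, rose in H82 from 11.6 ± 2.20 to 166 ± 92.8 TPM (3.53, limma, BH-adjusted *p* = 0.00113), and *LEFTY2*, a NODAL antagonist, fell from 7.15 ± 1.03 to 0.0511 ± 0.05 TPM (-2.95, limma, BH-adjusted *p* = 0.000128). In H146 *FST*, which encodes the activin-binding follistatin, rose from 3.73 ± 0.382 to 50.2 ± 17.2 TPM (3.37, limma, BH-adjusted *p* = 4.46e-05). *CHRD*, which encodes the BMP antagonist chordin, fell there from 19.6 ± 1.04 to 3.34 ± 0.996 TPM (-2.28, limma, BH-adjusted *p* = 0.00011) and also fell in H82 (-1.93, limma, BH-adjusted *p* = 0.013, and -1.51 without treated replicate 2, limma, BH-adjusted *p* = 0.0318).

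Of 10 other receptors of the superfamily, 0 of 7 tested were higher and 3 lower in H82 (42.9%, where 13.1% and 45.5% of all tested genes were higher and lower). In H146 5 of 8 were higher (62.5%) and 0 lower, where 32.5% and 15.5% of all tested genes were. With median-of-ratios scaling 1 was higher and 3 lower in H82, and 4 were higher and 0 lower in H146. *ACVR2B*, an activin type II receptor, had the largest change in each line and in opposite directions, from 36.2 ± 1.41 to 6.84 ± 1.50 TPM in H82 (-2.27, limma, BH-adjusted *p* = 0.0002), while H146 showed 5.57 ± 0.916 and then 14.6 ± 1.92 TPM (1.24, limma, BH-adjusted *p* = 0.000638). The difference between the lines was -3.51 (limma, BH-adjusted *p* = 5.63e-07).

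All 6 other SMADs were tested in each line, with 0 higher and 3 lower in H82 (50.0% lower, against 45.5% of all genes) and 3 higher and 1 lower in H146 (50.0% and 16.7%, against 32.5% and 15.5%). With median-of-ratios scaling 2 were higher and 2 lower in H146. Those lower in H82 were *SMAD2*, *SMAD4* and *SMAD5*. *SMAD2*, the partner of *SMAD3* as receptor-activated SMAD, had a log2 fold change of -0.69 (limma, BH-adjusted *p* = 0.0214), *SMAD4*, the common partner, of -0.58 (limma, BH-adjusted *p* = 0.0345), and *SMAD5*, a BMP-pathway SMAD, of -0.71 (limma, BH-adjusted *p* = 0.0193). The first of these 3 was chosen after its value was seen, and none of the 6 passed in H82 with median-of-ratios scaling. Without treated replicate 2 the values were -0.75, -0.68 and -0.77, and each passed (limma, BH-adjusted *p* between 0.0371 and 0.0388). *SMAD5* also missed the threshold without untreated replicate 2 or 3 (limma, BH-adjusted *p* = 0.0721 and 0.0527). In H146 *SMAD1*, another BMP-pathway SMAD, rose from 3.42 ± 0.209 to 10.9 ± 1.52 TPM (1.42, limma, BH-adjusted *p* = 0.000262), and *SMAD4* fell from 55.8 ± 2.74 to 35.7 ± 4.11 TPM (-0.63, limma, BH-adjusted *p* = 0.00391).

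Regulators of the signal act on receptors and SMADs. Of 12 listed, 2 of 11 tested were higher and 6 lower in H82 (18.2% and 54.5%, against 13.1% and 45.5% of all genes). In H146 6 of 11 were higher and 1 lower (54.5% and 9.09%, against 32.5% and 15.5%). With median-of-ratios scaling 3 were higher and 4 lower in H82, and 5 were higher and 1 lower in H146. *SKIL*, which encodes the SMAD corepressor SnoN, fell in H82 from 114 ± 18.4 to 26.6 ± 3.03 TPM (-2.05, limma, BH-adjusted *p* = 0.000195). *BAMBI*, which encodes a pseudoreceptor that dampens signaling, was higher in H82 (1.54, limma, BH-adjusted *p* = 0.0203), a call lost without untreated replicate 1, 2 or 3 or treated replicate 3 (limma, BH-adjusted *p* between 0.0509 and 0.0668). *TGIF1*, a corepressor of SMAD2 and SMAD3, rose in H146 from 1.52 ± 0.224 to 19.9 ± 5.50 TPM (3.01, limma, BH-adjusted *p* = 6.22e-05). *NEDD4L*, a ubiquitin ligase that removes activated SMADs, fell there (-0.42, limma, BH-adjusted *p* = 0.0245), and this was lost without untreated replicate 1 or 2 or treated replicate 3 or 4 (limma, BH-adjusted *p* between 0.0567 and 0.0886).

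Of 16 further transcriptional targets, 4 of 12 tested were higher and 5 lower in H82 (33.3% and 41.7%, against 13.1% and 45.5% of all genes), and 1 of 13 was higher and 2 lower in H146 (7.69% and 15.4%, against 32.5% and 15.5%). With median-of-ratios scaling 5 were higher and 2 lower in H82, and 1 was higher and 3 lower in H146. The medians were 0.04 in H82 and -0.05 in H146, or 0.45 and -0.31 with median-of-ratios scaling. *CDKN1A*, which encodes the cell cycle inhibitor p21, averaged 0.106 ± 0.130 TPM without and 22.3 ± 29.4 TPM with FHD-286 in H82 (3.57, limma, BH-adjusted *p* = 0.00903), and its log2 fold change was 2.50 without treated replicate 2 (limma, BH-adjusted *p* = 0.00121). *TAGLN*, which encodes the actin-binding protein transgelin, fell in H82 (-2.12, limma, BH-adjusted *p* = 0.00286). In H146 *CDKN2B*, which encodes the cell cycle inhibitor p15, rose from 8.64 ± 2.30 to 22.9 ± 3.95 TPM (1.32, limma, BH-adjusted *p* = 0.00109), and *SNAI2*, which encodes the transcription factor SLUG, fell from 24.3 ± 4.59 to 7.18 ± 1.77 TPM (-1.64, limma, BH-adjusted *p* = 0.000531).

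**Figure D4:**
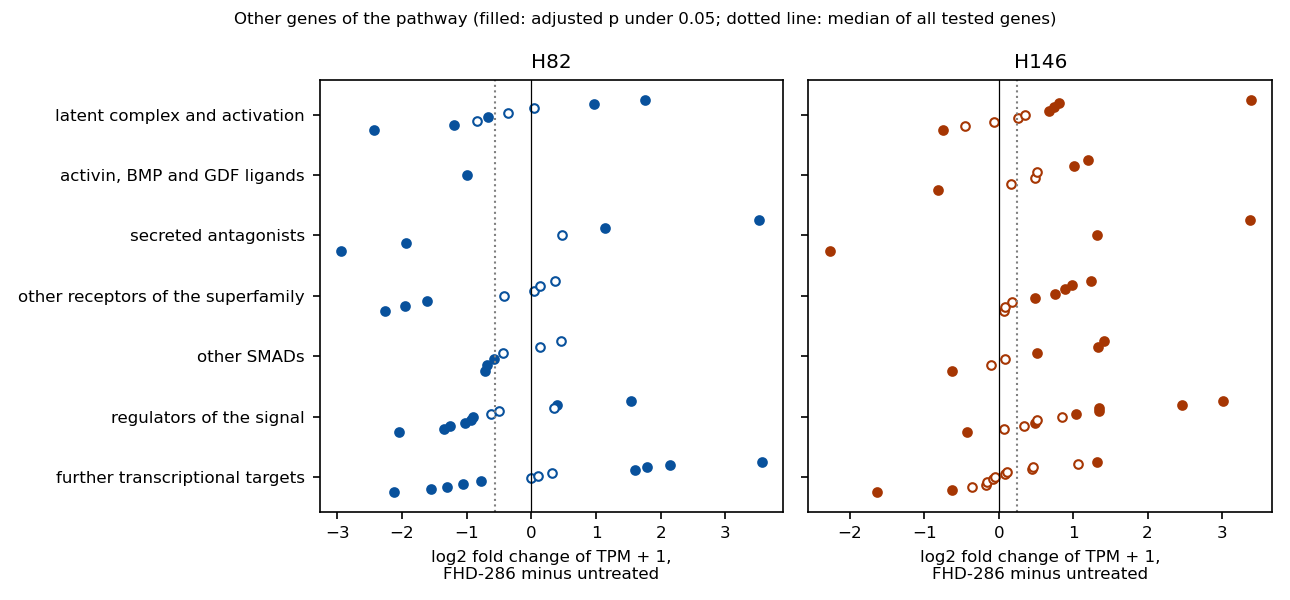
Log2 fold change of TPM + 1 with FHD-286 for the other genes of the pathway that passed the filter, by group (rows) in H82 (left) and H146 (right). Each point is a gene, filled where the limma, BH-adjusted *p* was under 0.05, and the dotted line is the median of all tested genes. Of all tested genes, 13.1% were higher and 45.5% lower in H82, and 32.5% were higher and 15.5% lower in H146.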

How the data were processed

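RNA was sequenced from 13 libraries of H82 and H146 cells. The submitters' processing notes name Trim Galore 0.4.4. The study's methods give it for the chromatin accessibility assay (ATAC-seq) and do not name it for RNA-seq. Per the study's methods, reads were mapped to hg38 and counted per gene with STAR and GENCODE release 28, and the authors deposited 1 table of TPM values per line. Each library sums to 1000000. How gene length was taken, whether reads were counted by strand and the depth per library are not given in the sources used here, so the spread between libraries sets the precision.

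For each line, log2(TPM + 1) was fitted on treatment alone with limma 3.58.1 in R 4.3.3 (moderated test, trend on mean level). Genes needed 1 TPM or more in 3 or more libraries. A gene could meet this filter through treated or untreated libraries alone, as *TGFB3* in H146 and *LTBP1*, *CDKN1A*, *ITGB8* and *LEFTY2* in H82 did. Fold changes are on the log2(TPM + 1) scale, which understates those of low genes. Responses of the lines were compared by an interaction term in a joint fit of all 13 libraries. All *p* values are two-sided and were adjusted by the Benjamini-Hochberg method across the genes of the fit, and 0.05 was the threshold. Genes below the filter were compared by an exact permutation test, whose smallest *p* is 0.1 in H82 and 0.0286 in H146. The code was tested on simulated data. Coordinates came from GENCODE release 44 and promoters from RefSeq (GRCh38.p14).

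The members and gene lists were chosen with earlier results of these data known. Named genes are the 9 members, the largest rise and fall past the threshold in each list and line, the 3 genes most like *TGFB1*, the member of highest mean TPM, and markers that bear on a result. *ITGB8*, *CHRD* and *SMAD4* are given for the other line too, and *SMAD2* was picked with its value known. Alternatives were a pseudocount of 0.1, no filter, scaling by the median of ratios, quantile normalization, a block for the replicate number, and omission of each library in turn. Python 3.11.15 with pandas 2.3.3, numpy 2.4.6 and matplotlib 3.10.9 prepared the tables and plots. Reads and the study's other assays were not analysed here.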

Additional observations from a re-analysis of the deposited data

Results flagged for a closer look

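The responses of the 2 lines to FHD-286 differed, by the interaction of line and treatment in limma, for 4 members. The difference, H82 minus H146 on the log2 scale, was 2.71 for *TGFB1* and -1.58 for *SMAD3*, and both also passed with median-of-ratios scaling (3.51 and -0.86). It was -1.46 for *TGFBR1* and -0.83 for *TGFBR3*, and neither passed with that scaling (-0.68 and -0.16). Without H82 treated replicate 2 these 4 were 2.62, -1.63, -1.62 and -0.80 and passed, and *SMAD7* and *TGFBI* passed as well. Over the other settings tried, 3 to 6 members passed. With quantile normalization *TGFBR3* did not pass (0.45), and *TGFB2* (1.61), *TGFBR2* (0.88) and *TGFBI* (1.99) did. With the replicate number as a block *TGFBR3* did not pass (-0.80, limma, BH-adjusted *p* = 0.0553) and *TGFBI* did (1.29). *TGFB2* in H146 and *TGFBR2* and *TGFBI* in H82 were below the filter of that line. *TGFB2* and *TGFBR2* met the filter of the joint fit only through libraries of the other line, where they were higher.

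Of the 22 other pathway genes named, 17 differed between the lines. The response was higher in H82 for *CDKN1A* (3.72), *SNAI2* (3.42), *NOG* (3.11) and *BMP6* (2.56). H82 treated replicate 2 was the highest library of its group for each of these, by a wide margin in 3, with 56.3 TPM of *CDKN1A* against 6.23 and 4.39 TPM, 10.4 TPM of *SNAI2* against 1.78 and 1.44 TPM, and 9.58 TPM of *BMP6* against 1.50 and 0.505 TPM. Without it the differences were 2.66, 2.71 and 1.74, and that of *NOG* was 2.78, and all 4 passed. The response was lower in H82 for *ACVR2B* (-3.51), *FST* (-3.20), *ITGB8* (-3.17), *LEFTY2* (-2.97), *TGIF1* (-2.66), *SKIL* (-2.53), *TAGLN* (-2.23), *GDF11* (-2.01), *LTBP1* (-1.63), *CDKN2B* (-1.33), *SMAD1* (-1.28), *SMAD5* (-1.22) and *NEDD4L* (-0.52). *BMP6* and *FST* in H82 and *NOG* and *LEFTY2* in H146 were below the filter of that line. *FST* stayed at 0.138 to 0.699 TPM in H82 and *LEFTY2* at 0 to 0.0837 TPM in H146, near the floor. *LTBP1* was at 0 to 0.177 TPM in untreated H82. With a pseudocount of 0.1 its log2 fold change was 4.12 in H82 and 3.60 in H146. The order of the lines for this gene thus depends on the pseudocount. With median-of-ratios scaling 13 of the 17 kept their direction and passed. *SMAD5*, *SMAD1* and *CDKN2B* kept their direction without passing, and *NEDD4L* changed sign to 0.25 without passing. Several of these genes were named because they moved most in 1 line, which favours a difference between the lines, and 59.3% of all genes passed the same test.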

How the results depend on the processing

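*TGFB1* in H82 kept its direction and its call in all 11 alternatives (2.60 to 3.27), as did *SMAD3* in H82 (-2.42 to -1.74), and *SMAD7* and *TGFBR3* in H146 did in all 12 (0.60 to 1.06 and 0.58 to 1.0). The largest moves came with a pseudocount of 0.1, to -5.63 from -2.95 for *LEFTY2*, 6.02 from 3.57 for *CDKN1A*, 4.12 from 1.76 for *LTBP1*, -4.09 from -2.43 for *ITGB8*, 3.58 from 1.57 for *TGFBI* and 1.75 from 0.37 for *TGFBR2* in H82, with no call changed among these. With median-of-ratios scaling *TGFB3* in H82 became 0.21 and *TGFB1* in H146 -0.23. With quantile normalization these were 0.81 and -0.030, *TGFBR2* in H146 was -0.030, and the differences between the lines were 0.56 for *TGFB3*, 0.45 for *TGFBR3* and 0.29 for *SMAD7*, where the values as deposited were -0.68, -0.83 and -0.74. Members higher in H82 numbered 3 with quantile normalization, against 1. Members lower in H82 numbered 1, against 2, with a pseudocount of 0.1, with no filter and with median-of-ratios scaling, since *TGFBR1* lost its call. Pathway genes higher in H82 numbered 16 with quantile normalization, against 10, and those lower 13 with median-of-ratios scaling, against 23.

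Leaving out 1 library at a time gave 1 to 2 members higher and 1 to 2 lower in H82, with *SMAD7* added without treated replicate 1 and *TGFBR1* lost without any untreated one, and 6 to 14 pathway genes higher, with 6 without untreated replicate 2. Signs changed within -0.045 to 0.73 for *TGFB2*, -0.41 to 0.055 for *TGFB3*, -0.0052 to 0.15 for *TGFBR3* and -0.20 to 0.67 for *SMAD7* in H82, -0.066 to 0.21 for *TGFB1* and -0.13 to 0.057 for *TGFB2* in H146, and -0.028 to 0.75 for the difference between the lines in *TGFB2*. The causes were not tested.

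Same-numbered untreated and treated libraries showed no shared deviation (correlations of -0.0378 to 0.027 for H82, and of -0.111 to 0.0108 for H146). With so few libraries this cannot settle whether the numbers pair them, and the labels do not say. With the replicate number as a block, in which H146 treated replicate 4 has no partner, members lower in H146 numbered 0, against 1, as *SMAD3* gave -0.68 (limma, BH-adjusted *p* = 0.0578). All genes called became 2333 higher and 8625 lower in H82 and 4749 and 2377 in H146.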
